A study of Mus musculus with 2 samples.

Results

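The microRNA genes Mir148a, Mir148b and Mir152 form a family whose 3p arms share the seed, the stretch of a microRNA that pairs first with its target mRNAs. They were chosen by their gene symbols and are 3 of the 1973 microRNA genes counted in limb tissue of mouse embryos. The samples were the limbs of B6NCrl embryos at embryonic day 14.5, and they formed 1 group of 2 libraries with no treatment or altered allele. The labels describe each as 4 limbs of a pup, give the sex as pooled male and female, and put the same donor on both. The libraries are numbered as biological replicates with collection dates of their own. Given the shared donor label, it is not clear whether they come from independent animals, and the spread between them may be partly technical. With no second condition, the questions were at what level each gene was read in the limb, how the genes compared with each other, and how far the libraries differed.

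As background, a microRNA gene is transcribed as a longer RNA that is cut to a hairpin and then to a short duplex, whose strands are the 5p and the 3p arm. The arm that is loaded into an Argonaute protein represses mRNAs whose sequence matches its seed. The miR-148 and miR-152 family is best known for repressing the maintenance DNA methyltransferase DNMT1. Its member miR-148a is also known as a regulator of the LDL receptor in liver. No mRNA, protein or DNA methylation was measured in these samples.

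The mature 3p arms are shown because their shared start defines the family and the bases after it tell the members apart. They are written 5′ to 3′ with bases 2 to 8, the seed, in capitals, as RefSeq gives them on GRCm38.p6.
miR-148a-3p: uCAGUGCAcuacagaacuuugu
miR-148b-3p: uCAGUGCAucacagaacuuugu
miR-152-3p: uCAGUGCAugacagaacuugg
All 3 carry the seed CAGUGCA, and no other gene of the RefSeq microRNA table had these letters at bases 2 to 8 of a mature arm. Counted from 1 at the 5′ end, the 3p arm of miR-148a differed from that of miR-148b by C9U and U10C, so that 20 of 22 bases were identical. Against miR-152 it differed by C9U, U10G and U20G, with 18 of 21 compared bases identical. The arms of miR-148b and miR-152 differed by C10G and U20G, with 19 of 21 identical, and miR-152-3p is 1 base shorter, at 21 bases. All differences between the 3p arms thus lay outside the seed.

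The 5p arms are shown because the counts cover a whole gene and could hold reads of either arm.
miR-148a-5p: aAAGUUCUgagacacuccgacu
miR-148b-5p: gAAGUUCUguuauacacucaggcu
miR-152-5p: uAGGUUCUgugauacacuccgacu
Here miR-148a and miR-148b shared the letters AAGUUCU at bases 2 to 8, which no further gene of the table had. The arm of miR-152 had AGGUUCU there, which was found in no other gene, and it differed from miR-148b by A3G within that stretch. Compared from the first base without gaps, the 5p arms of miR-148b and miR-152 had 19 of 24 bases identical, a lower share than their 3p arms. Between miR-148a and miR-148b 13 of 22 were identical. As miR-148a-5p has 22 bases and the others 24, its later bases are compared out of step, which can understate its likeness to them. The last letters of miR-148a-5p and miR-152-5p, for one, are the same.

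The hairpins show where the arms lie, with both mature arms in capitals.
Mir148a: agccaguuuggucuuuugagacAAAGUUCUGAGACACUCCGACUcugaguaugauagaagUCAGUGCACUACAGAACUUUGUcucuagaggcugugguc
Mir148b: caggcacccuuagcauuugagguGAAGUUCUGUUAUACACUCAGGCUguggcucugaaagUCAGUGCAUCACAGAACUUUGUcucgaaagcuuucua
Mir152: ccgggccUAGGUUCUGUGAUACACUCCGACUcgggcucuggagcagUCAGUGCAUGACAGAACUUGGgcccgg
The loop sides of the arms are 16, 13 and 15 bases apart in Mir148a, Mir148b and Mir152. The longest stretch that a member shared with any of the 1004 other hairpins of the table was 15 bases in Mir148a and Mir148b, which share it with each other, and 12 bases in Mir152. Read from its first base, miR-148a-3p was told apart from all other hairpins by 9 bases, and miR-148b-3p and miR-152-3p by 10 bases. Reads with several alignments had been left out of the gene counts. Among annotated hairpins, full-length reads of these genes had no second match, while matches elsewhere in the genome were not searched.

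The genes lie apart from each other and from other microRNA genes. In GRCm38 coordinates, Mir148a (ENSMUSG00000065505.1) lies at chr6:51269812-51269910 on the minus strand, inside no other gene of GENCODE M21. Its nearest annotated gene is the noncoding Gm32479, 13.6 kb away on the same strand, and the nearest protein-coding gene is Nfe2l3, 163 kb away. Mir148b (ENSMUSG00000065560.1) lies at chr15:103285125-103285221 on the plus strand, in intron 1 of Copz1. Mir152 (ENSMUSG00000065515.1) lies at chr11:96850393-96850465 on the plus strand, in intron 1 of Copz2. Copz1 and Copz2 are paralogs that encode the zeta subunit of the coatomer, the coat of vesicles that move within the Golgi and back to the endoplasmic reticulum. Both microRNA genes are read in the direction of their host, and in all annotated transcripts that span them they fall in the intron, not in an exon. The introns differ in size, 16159 bases in Copz1 and 676 bases in Copz2. None of the 3 genes has another annotated microRNA gene within 50 kb.

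Mir148a was the main source of family reads in the limb. Levels are given in CPM, a gene's own-strand read count scaled to the sum of own-strand microRNA counts of its library, which was 4608816 in replicate 1 and 4144385 in replicate 2. Mir148a held 7864 counts in replicate 1 and 6885 counts in replicate 2, or 1706 and 1661 CPM, with exact binomial 95% intervals of 1669 to 1744 and 1622 to 1701 CPM. These intervals overlap, and the gene averaged 1684 ± 31.8 CPM (SD, n = 2). Intervals here cover counting error only, since each is computed from the counts of 1 library. The tables record no molecular identifiers, so repeated reads of 1 molecule could not be set apart.

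Mir152 and Mir148b were read at similar levels to each other and far below Mir148a in both libraries. Mir152 held 1608 and 1283 counts in replicates 1 and 2, or 349 CPM (interval 332 to 366) and 309.6 CPM (293 to 327), with a mean of 329 ± 27.8 CPM (SD, n = 2). Mir148b held 1422 and 1358 counts, or 308.5 CPM (293 to 325) and 328 CPM (310.5 to 346), with a mean of 318 ± 13.5 CPM (SD, n = 2). Mir152 was thus the higher of the pair in replicate 1 and Mir148b the higher in replicate 2, and the ranges of the 2 genes over the libraries overlap.

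**Figure D1:**
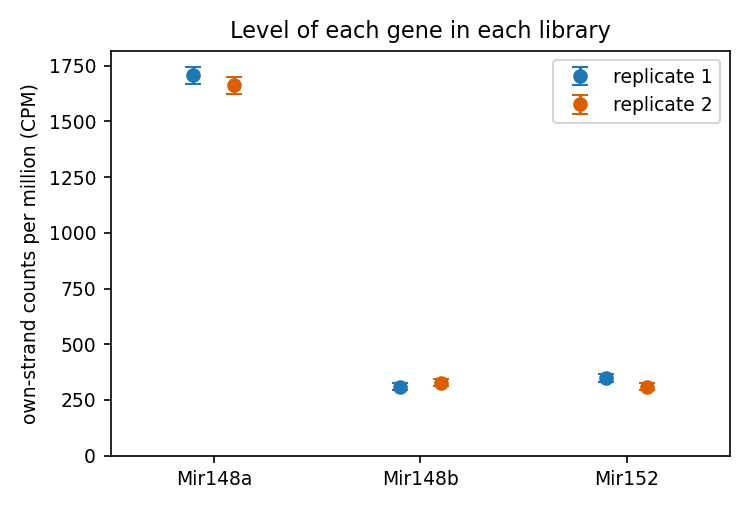
Level of Mir148a, Mir148b and Mir152 in each library, in CPM of own-strand counts on a linear axis from 0. Points are libraries and bars are exact binomial 95% intervals of counting error; Mir148a sits at 1706 and 1661 CPM, and the other genes all lie between 308.5 and 349 CPM.

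The family together held 10894 counts in replicate 1 and 9526 in replicate 2. This came to 2364 and 2299 CPM, with a mean of 2331 ± 46.1 CPM (SD, n = 2), or 0.233% of the microRNA counts. Of these reads Mir148a gave 72.2% in replicate 1 (exact binomial 95% interval 71.3 to 73.0) and 72.3% in replicate 2 (71.4 to 73.2), so that its share was alike in both libraries. Mir148b gave 13.1% (12.4 to 13.7) and 14.3% (13.6 to 15.0). Mir152 gave 14.8% (14.1 to 15.4) and 13.5% (12.8 to 14.2). The share of Mir148a thus moved by less than its counting error. As the shares add up to the whole, those of the genes in the Copz introns then had to move in opposite directions.

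**Figure D2:**
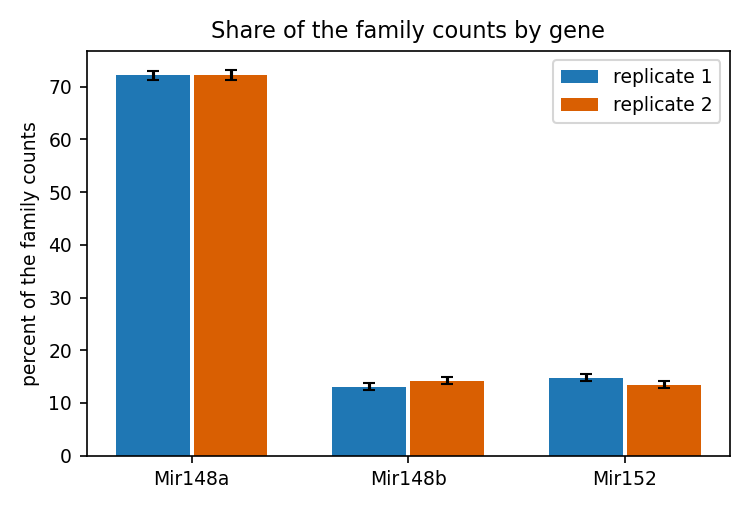
Percent of the family counts given by each gene in each library. Bars start at 0 and error bars are exact binomial 95% intervals; Mir148a gives 72.2% and 72.3%, while Mir148b goes from 13.1% to 14.3% and Mir152 from 14.8% to 13.5% between replicates 1 and 2.

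As ratios of counts, Mir148a exceeded Mir148b 5.53-fold in replicate 1 and 5.07-fold in replicate 2, a mean of 5.30 ± 0.325 (SD, n = 2). It exceeded Mir152 4.89-fold and 5.37-fold, a mean of 5.13 ± 0.336. Against both genes of the Copz introns added up, Mir148a was 2.60-fold in replicate 1 and 2.61-fold in replicate 2. Mir148b over Mir152 was 0.884 in replicate 1 (exact binomial 95% interval 0.823 to 0.950) and 1.06 in replicate 2 (0.980 to 1.14), so their order was not resolved. No permutation test was made of the order, since 2 libraries cannot reach a p under 0.05. A read stands for a whole small RNA, so the counts were not divided by length. Divided by the length of the annotated precursor, which is 99 bases for Mir148a, 97 for Mir148b and 73 for Mir152, Mir148a over Mir152 was 3.78 and Mir148b over Mir152 was 0.731, below 1 in both libraries (0.666 and 0.797). How evenly these RNAs were captured into the libraries was not measured, so the ratios compare reads.

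Among the 333 genes with at least 10 counts in both libraries, Mir148a ranked 85, Mir152 147 and Mir148b 148 by mean CPM. The genes nearest to Mir148a over the 2 libraries, by distance on the log2(CPM + 1) scale, were Mir134 (1731 and 1668 CPM in replicates 1 and 2, distance 0.022) and Mir1983 (1679 and 1711 CPM, distance 0.048). Next to it in rank stood Mir181a-1 (1629 and 1748 CPM) above and Mir301 (1548 and 1744 CPM) below, and the ranges of both include those of Mir148a. Nearest to Mir152 were Mir200a (355 and 327 CPM, distance 0.083) and Mir598 (336 and 332 CPM, distance 0.11). Nearest to Mir148b were Mir598 (distance 0.12) and Mir152 itself (distance 0.19). Below Mir148b in rank stood Mir485 (298 and 262 CPM), whose range lay under that of Mir148b. Over 2 libraries such distances describe levels, and they carry no statement on shared function.

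The libraries were compared gene by gene with a two-sided exact binomial test of the counts given the library totals, adjusted by Benjamini-Hochberg over the 407 genes that reached 10 counts when both libraries were added. The test asks whether reads of a gene differ beyond counting error between these libraries and says nothing of conditions. Mir152 passed as the lower in replicate 2, its log2 ratio being -0.17 (95% interval -0.28 to -0.066) and an adjusted p = 0.00516 by the exact binomial test. The log2 ratio of Mir148a was -0.039 (interval -0.085 to 0.0083, adjusted p = 0.237 by the same exact test). That of Mir148b was 0.087 (interval -0.022 to 0.20, adjusted p = 0.253 by the same exact test). So 1 of the 3 genes passed, against 35.6% of all tested genes in either direction and 15.7% lower in replicate 2. The test calls more genes where counts are high, and of the 64 genes with total counts between those of Mir148b and Mir148a, the members included, 35 (54.7%) were called. No member differed 2-fold. Both an adjusted p under 0.05 by this test and at least a 2-fold difference were found for 0.983% of the tested genes. The median log2 ratio was -0.039 over the members and 0.043 over all tested genes.

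The calls depended on how the libraries were scaled and on the noise assumed. With TMM library sizes the log2 ratio of Mir148a was -0.080 (adjusted p = 0.00315 by the exact binomial test). With DESeq2 size factors it was -0.081 (adjusted p = 0.0026 by the same exact test). Under either scaling 2 of 3 members were called in either direction, Mir148a and Mir152, each as lower in replicate 2. Of all 407 tested genes, 135 with TMM and 133 with DESeq2 were called in either direction. For these scalings no share is given of genes called lower or of genes with counts like those of the members. Where a coefficient of variation of 0.1 or 0.2 between libraries was assumed in the exact test of edgeR, Mir152 had an adjusted p = 1 and no member was called. Over the 6 alternatives, the adjusted p of Mir152 ranged from 0.000309 to 1 (exact binomial and edgeR exact tests).

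**Figure D3:**
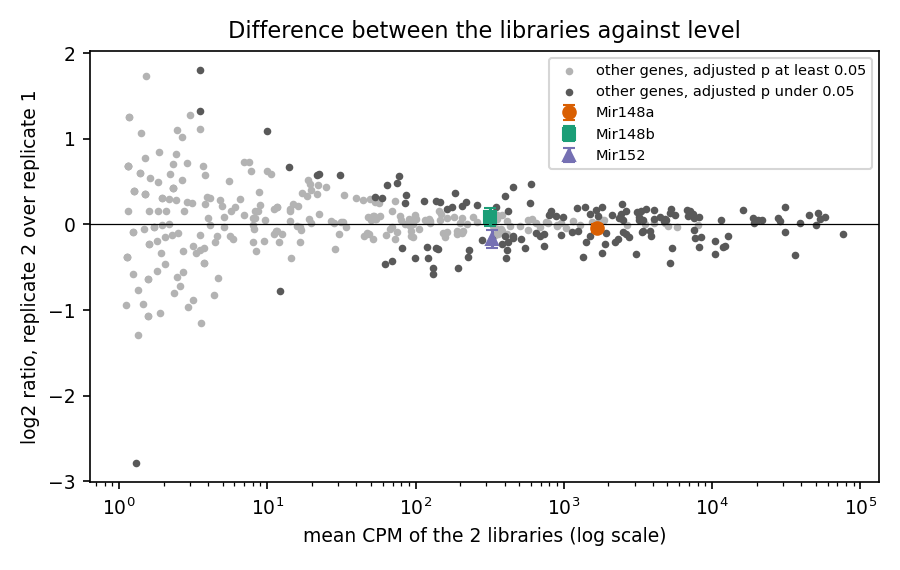
Log2 ratio of replicate 2 over replicate 1 against mean CPM (log axis) for 407 microRNA genes, dark grey where the adjusted p of the exact binomial test is under 0.05. Coloured markers with 95% intervals are Mir148a at -0.039, Mir148b at 0.087 and Mir152 at -0.17, none of them at a 2-fold difference.

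Some tissue microRNAs also moved between the libraries, and their part in the lower Mir152 level was not tested. Both listed skeletal muscle microRNAs were lower in replicate 2, with a sum of 6196 against 4520 CPM in replicates 1 and 2. So were both listed for surface epithelium (53900 against 43852 CPM) and both listed erythroid ones (539 against 409 CPM). The muscle sum holds Mir206 and Mir133b. It leaves out, among others, Mir499 and Mir208b, which were also called lower. Mir1a-1, Mir133a-1 and Mir133a-2, left out as well, held 2 counts or fewer in each library. The cartilage microRNAs Mir140 and Mir455 summed to 59560 and 63162 CPM. The 3 listed Hox cluster microRNAs, markers of patterned limb mesenchyme, did not move as 1 group. Mir196b was higher in replicate 2 (49518 against 54433 CPM), while Mir10b (11147 against 9763 CPM) and Mir10a (3425 against 2699 CPM) were lower. All of these listed genes were called by the exact binomial test, which called 35.6% of all tested genes and more where counts were high. Of Hox cluster microRNAs not listed, Mir196a-2 (418 against 382 CPM) was called lower. Mir615 (898 against 897 CPM) and Mir196a-1 (8.25 against 7.96 CPM) were not called. The endothelial Mir126a was at 18963 and 19268 CPM, and the leukocyte pair Mir223 and Mir155 summed to 587 and 645 CPM. The listed markers of the labelled tissue, cartilage and Hox microRNAs, were thus high in both libraries. Of the microRNAs listed for other organs, Mir375, listed as endocrine, reached 387 and 526 CPM, above Mir148b and Mir152 in each library. The liver Mir122 reached 6.29 and 13.5 CPM. Which cells these reads came from was not tested. The 3 Mir124a genes, which mark brain, were at 0 counts, but they encode the same mature arm, whose reads align several times and were left out, so this sets no limit on it. In whole tissue, fewer cells of a type and less RNA per cell cannot be told apart.

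The letters of the family seed also occur at the very start of other microRNAs, moved by 1 base. Of 1738 mature arms in the RefSeq table, 11 (0.633%) held CAGUGCA within their first 10 bases. Apart from the 3 family arms, 7 had it from base 1, among them miR-130a-3p, miR-130b-3p and miR-301a-3p, and miR-449c-5p had it from base 4. The most abundant of them in the limb are shown with these letters in capitals, beside miR-449c-5p as the case with another start.
miR-130a-3p: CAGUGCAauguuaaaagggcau
miR-130b-3p: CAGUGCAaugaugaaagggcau
miR-301a-3p: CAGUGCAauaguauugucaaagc
miR-449c-5p: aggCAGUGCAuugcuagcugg
Bases 2 to 8 of the first 3 are AGUGCAA, so that their seed is that of the family moved on by 1 letter. Mir130a was read at 27042 and 28550 CPM in replicates 1 and 2, Mir130b at 4696 and 4811 CPM and Mir301 at 1548 and 1744 CPM. Mir449c, Mir6341, Mir6389 and Mir130c, which also hold the letters, had 0 counts in both libraries, which allows up to 0.651 and 0.724 CPM of singly aligned reads, and Mir721 was not matched in the tables. Mir301b was listed by family: the RefSeq table holds only its 5p arm, so its 3p arm was not searched for these letters. The listed genes Mir130a, Mir130b, Mir301 and Mir301b summed to 34295 ± 1292 CPM (SD, n = 2). This sum was 14.7 ± 0.845 times that of the Mir148 and Mir152 family. Mir130a alone, whose arm has the letters from base 1, was read at a higher level than the 3 genes with the letters from base 2 together, in both libraries.

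Families differ in how their reads are spread over the genes. Mir148a gave 72.2% of its family, Mir130a gave 81.1% of the Mir130 and Mir301 genes, Mir26b gave 99.7% of the Mir26 family and Mir29a gave 62.0% of the Mir29 family. The Mir26 family is a like case to Mir148b and Mir152 in that its genes sit in introns of paralogs, the Ctdsp phosphatase genes. Its sum was 28741 ± 509 CPM (SD, n = 2), or 12.3 ± 0.462 times that of the Mir148 and Mir152 family. The Mir29 family summed to 146 ± 3.69 CPM, and the Mir148 and Mir152 family was 16.5 and 15.5 times as high in replicates 1 and 2. The arms miR-26a-5p and miR-29b-3p each occur whole in a second hairpin, so that their genes lose reads with several alignments and are undercounted here. No arm of Mir148a, Mir148b or Mir152 occurs in another hairpin. No test of these family differences was made, since there is no contrast between groups.

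**Figure D4:**
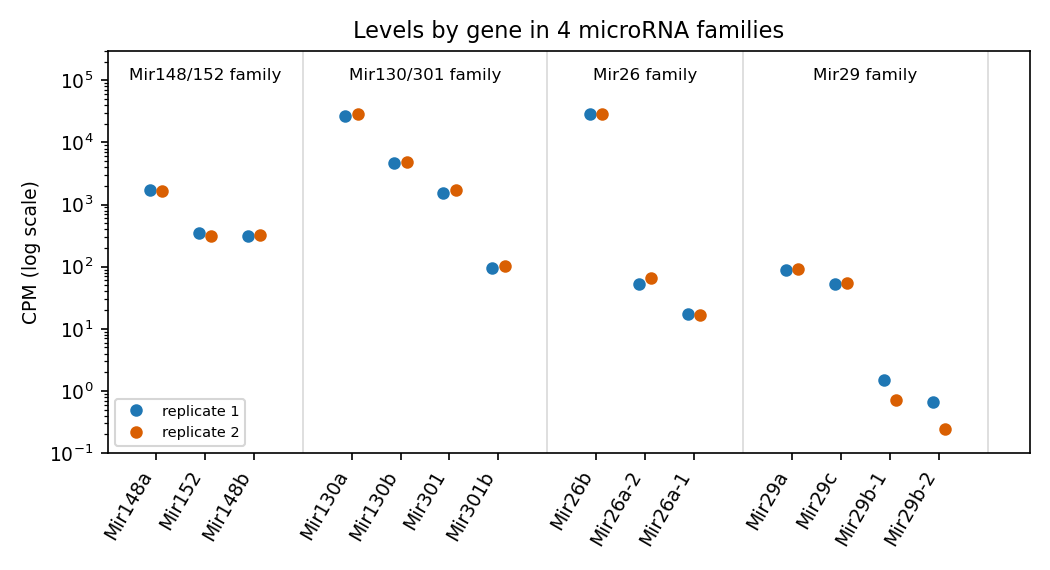
CPM (log axis) of each gene in 4 microRNA families, 1 point per library. Mir148a lies near Mir301 and above all genes of the Mir29 family, and Mir148b and Mir152 lie together between Mir301 and Mir301b; Mir29b-1 and Mir29b-2 hold 7 counts or fewer in each library.

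Other microRNAs known to repress DNA methyltransferases were read over a wide range. The list held 10 genes, of which 8 reached 10 counts in each library, and it summed to 32989 ± 128 CPM (SD, n = 2). Mir126a, whose main site is endothelium, gave 57.9% of this sum. Mir143, a microRNA of smooth muscle and mesenchyme, was at 8368 ± 612 CPM (SD, n = 2) and Mir342 at 3308 ± 254 CPM. Mir101b, at 1728 ± 5.87 CPM, was close to Mir148a. Mir185, known for repressing DNMT1 as the Mir148 and Mir152 family does, was at 198 ± 2.10 CPM, below both Mir148b and Mir152 in each library. Mir29a and Mir29c, which act on DNMT3A and DNMT3B, were at 90.6 ± 2.92 and 53.9 ± 1.62 CPM. Of 9 tested genes, Mir342 and Mir126a were higher and Mir143 was lower in replicate 2 by the exact binomial test, while 19.9% of all tested genes were higher and 15.7% lower. The direction of Mir126a rested on scaling, with a log2 ratio of 0.023 by counts, -0.018 with TMM library sizes and -0.020 with DESeq2 size factors, and under both scalings it was called lower. Within the family that includes Mir148a, the lower call of Mir152 was kept under both of these scalings, with a log2 ratio of -0.21 for TMM and -0.22 for DESeq2.

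No read of the opposite strand was placed at Mir148a, Mir148b or Mir152 in either library, so the either-strand and own-strand counts of the 3 genes are equal. The arms cannot be separated in these counts, and how many reads came from the 3p arms with the shared seed is not known from the tables.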

How the data were processed

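Small RNA libraries with inserts under 30 nucleotides were made from 2 limb samples, per the labels. The deposited values are raw read counts per microRNA gene, made by the authors on the mm10 assembly with GENCODE annotation M4, per the deposited read-me texts. For the aligner and counter, names are not given in the sources used here. Per table there are 3 count columns without a header, taken from their values as either, own and opposite strand. Library sizes leave out the 4 tally rows: in replicates 1 and 2, unmapped reads were 12.8% and 13.7%, reads with several alignments 31.8% and 32.6%, and reads on no gene 4.19% and 4.31% of all 9001596 and 8387546 reads.

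Symbols and positions came from GENCODE M21 (GRCm38, 1894 of 1973 identifiers matched; the 3 members with the same version). Sequences came from the RefSeq table on GRCm38.p6, in which all 3 members matched. A quasi-likelihood test was not possible with 1 library a side, so the exact binomial test was used. Its check on simulated data held counting noise only, so it does not bear on further spread between real libraries. Log2 ratios carry a prior count of 0.5. Tools were Python 3.11.15, scipy 1.17.1, pandas 2.3.3, R 4.3.3, edgeR 4.0.16 and DESeq2 1.42.0. Named genes were the members, genes with their seed letters, the 2 nearest in level and the next in rank, comparison families, a list of DNA methyltransferase regulators and tissue markers. Members and lists were chosen with earlier results of these data known.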

Additional observations from a re-analysis of the deposited data

How the results depend on the processing

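The levels depend on the total they are scaled to. With reads of several alignments in the total, the family summed to 1421 CPM, Mir148a to 1026, Mir148b to 194 and Mir152 to 201 CPM; with either-strand counts the family summed to 2258 and Mir148a to 1631 CPM. Without either replicate in turn, the family sum ranged from 2299 to 2364 CPM and Mir148b over Mir152 from 0.884 to 1.06. Per precursor length, Mir148a gave 68.6% and Mir152 18.2% of the family, Mir148a over Mir152 was 3.78 and Mir148b over Mir152 was 0.731, which follows from the shorter precursor of Mir152.

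By the exact binomial test, 1 member was called lower in replicate 2. TMM library sizes and DESeq2 size factors gave 2 called members, with Mir148a at a log2 ratio of -0.080 and -0.081. Of all 407 tested genes, they called 135 and 133 in either direction. These scalings took the median log2 ratio of all tested genes from 0.043 to 0.0014 and 2.1e-05. With an assumed coefficient of variation of 0.1 or 0.2, edgeR's exact test called 0 members and 0 of 407 genes, and Mir152 stayed at a log2 ratio of -0.17 under each. At an unadjusted p under 0.05 that test gave 16 and 3 genes, with 0 members among them, against 145 adjusted and 166 unadjusted calls by the exact binomial test. The count filters of at least 1 and at least 100 counts changed no call of a member. No paired analysis was possible because there is 1 group. The ratios are limited by n = 2.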
